A study of Homo sapiens with 16 samples.

Results

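The 10 genes described here belong to the actin cytoskeleton and were followed across 16 RNA libraries of U2OS cells, an established human osteosarcoma line. They were taken from the 58735 genes of the deposited table by symbol, and all 10 were found and passed the filter on low values, as did 13088 genes in all. They are the cytoplasmic actins ACTB and ACTG1, the filamins FLNA and FLNC, the actomyosin regulators MYL9, TPM1, TAGLN and CNN2, and the adhesion and scaffold genes VCL and LASP1.

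The cells carried an siRNA against SETD2 (siSETD2) or a non-targeting siRNA (siNT) and were collected 48 h after transfection. With each siRNA they were given, for 4 h, 2 mM hydroxyurea (HU), 2 µM VE-822, or HU with VE-822 at the same concentrations, or were left untreated. These 8 groups held 2 libraries each, R1 and R2, and the untreated cells carry an siRNA like all others. SETD2 is the methyltransferase that trimethylates lysine 36 of histone H3, HU blocks ribonucleotide reductase and slows DNA replication, and VE-822 is an inhibitor of ATR, a kinase of the replication checkpoint. The labels do not say whether R1 and R2 were separate cultures, so p-values measure only how far these libraries differ, and that spread may be technical.

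Actin exists in cells as free monomers and as filaments, and the filaments are bundled, crosslinked and attached to the membrane by proteins such as filamins, calponins and vinculin. The genes of many of these proteins, and of actin itself, are known targets of the serum response factor SRF. SRF binds a sequence called the CArG box (CC, then 6 bases that are A or T, then GG) together with a cofactor. The cofactors of the myocardin-related family (MRTFs) are held back by free actin monomers and released when monomers are built into filaments, so that the pathway senses the state of actin itself. Another family of cofactors, the ternary complex factors (ELK1, ELK3 and ELK4), links SRF to growth factor signalling and to immediate early genes such as FOS and EGR1.

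The CArG box could be looked for in 7 of the 10 genes, those with an entry in the RefSeq promoter table (GRCh38.p14, 250 bases before to 50 bases after each start). ACTB, MYL9 and TAGLN had no entry there and were not searched. The box was present in 3 of the 7 windows, ACTG1, FLNA and CNN2, and in 1.29% of all 35116 windows of that length (454 windows; the box reads the same way on both strands). The 150 bases before the start of these genes are shown because they hold the match, with the box in capitals. They lie at chr17:81512800-81512949 on the minus strand (ACTG1), chrX:154374635-154374784 on the minus strand (FLNA) and chr19:1026458-1026607 on the plus strand (CNN2), and are written 5′ to 3′.
ACTG1: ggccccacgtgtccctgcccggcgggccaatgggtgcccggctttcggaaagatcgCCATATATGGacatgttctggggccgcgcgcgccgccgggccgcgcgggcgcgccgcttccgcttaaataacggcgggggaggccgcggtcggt
FLNA: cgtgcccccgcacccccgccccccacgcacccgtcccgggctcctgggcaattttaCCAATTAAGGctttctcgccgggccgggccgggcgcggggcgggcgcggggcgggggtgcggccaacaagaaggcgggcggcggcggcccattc
CNN2: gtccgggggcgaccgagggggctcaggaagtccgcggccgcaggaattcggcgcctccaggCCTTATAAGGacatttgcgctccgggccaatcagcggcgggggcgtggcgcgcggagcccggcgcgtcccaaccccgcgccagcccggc
The first base of the box stood 94 bases before the start in ACTG1 and FLNA and 89 bases before it in CNN2. FLNC, TPM1, LASP1 and VCL held no box in these windows. Of the other motifs searched on both strands, GGGCGG was in 7 of 7 windows (45% of all windows), GGAATG in 2 of 7, FLNC and VCL (14% of all), and TATAAA in 0 of 7 (11.5% of all). TATAAA can lie within a CArG box, and GGGCGG and GGAATG can share bases with its ends. A match is a description of the letters only, and binding of SRF was not measured. The 10 genes were chosen as actin-binding and SRF-controlled genes, so a high share with the box is favoured by the choice.

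Before the results by gene, the libraries themselves have to be described. They held between 22310806 and 31101932 fragments each, and SETD2 lay at 2.01 to 4.62 FPKM in the 8 siSETD2 libraries, against 7.34 to 9.25 FPKM in the 8 siNT libraries (log2 fold change -1.09, SE 0.125, limma adjusted p = 0.0169). The knockdown was uneven. In siSETD2 R1 libraries SETD2 held 2.01, 2.22 and 2.64 FPKM in untreated, HU and HU with VE-822. The matching R2 libraries held 4.17, 4.13 and 3.67 FPKM, and VE-822 alone held 4.62 (R1) and 3.95 (R2) FPKM. The largest axis of variation (46.1% of the variance of log2(FPKM + 1)) set the 4 VE-822-alone libraries, at 29.46 to 35.27, apart from the other R2 libraries, at 0.86 to 7.23, and from the other R1 libraries, at -33.32 to -20.54. The R1 and R2 libraries thus formed separate sets in 6 of the groups and did not do so in VE-822 alone. No library of another treatment lay with the VE-822-alone set, so the drug without HU and anything else that set these libraries apart cannot be told apart. The mesenchymal markers VIM (77.3 to 167 FPKM) and SPARC (89.2 to 249.8 FPKM) were high in every library, whereas COL1A2 and ALPL reached at most 0.0414 and 0.214 FPKM. COL1A1 (7.45 to 39.0 FPKM), FN1 (6.91 to 51.1 FPKM) and RUNX2 (0.833 to 6.91 FPKM) varied more. The epithelial marker EPCAM held 1.52 to 2.18 FPKM, while CDH1, KRT5 and KRT14 reached at most 0.189, 0.0754 and 0.213 FPKM. The endothelial markers PECAM1 and CDH5 reached at most 0.482 and 0.0965 FPKM. The blood markers PTPRC and CD14 reached at most 0.102 and 0.340 FPKM, while CD3D held 0.716 to 2.87 FPKM. Of the smooth muscle markers DES and MYOCD were at 0 in 9 libraries each, and MYH11 and LMOD1 reached at most 0.0976 and 0.419 FPKM. CNN1 (0.522 to 1.38 FPKM) and ACTA2 (0.502 to 2.93 FPKM) were detected in all 16. Of the striated muscle markers MYOD1 was at 0 in 12 libraries, and TNNT2 and CKM reached at most 0.383 and 0.0952 FPKM. ACTA1 (0.0271 to 0.343 FPKM) and ACTC1 (0.209 to 0.905 FPKM) were detected in all 16.

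The levels of the 10 genes were compared per length, in FPKM (fragments scaled to exon length and to library depth). ACTB, the beta-actin that forms most filaments of non-muscle cells, had a median of 906 FPKM over the 16 libraries (range 705 to 1222; chr7:5527147-5563784, minus strand, GRCh38). ACTG1, the gamma-actin that differs from it at few residues, had a median of 373 FPKM (310.1 to 499; chr17:81509971-81523847, minus strand). They ranked 22nd and 39th among the 13088 genes tested. Next came the filamins, large proteins that crosslink filaments into networks, with medians of 252 FPKM for FLNA (155 to 295; chrX:154348524-154374638, minus strand) and 195 FPKM for FLNC (68.9 to 321; chr7:128830377-128859274, plus strand). FLNC is known as the filamin of muscle, and in these osteosarcoma cells it stood above FLNA in 4 of 16 libraries.

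The other genes lay lower. VCL encodes vinculin, which couples adhesions to actin, and had a median of 48.0 FPKM (22.5 to 65.9; chr10:73995193-74121363, plus strand), and LASP1, a LIM and SH3 domain protein of adhesions, 34.2 FPKM (19.3 to 42.7; chr17:38869859-38921770, plus strand). CNN2, a calponin that binds filaments, had 15.7 FPKM (11.5 to 21.1; chr19:1026581-1039068, plus strand), MYL9, a regulatory light chain of non-muscle and smooth muscle myosin, 6.96 FPKM (5.46 to 9.35; chr20:36541484-36551447, plus strand), and TPM1, a tropomyosin that lies along filaments, 6.68 FPKM (3.61 to 9.44; chr15:63042632-63071915, plus strand). TAGLN, the calponin-like transgelin used as a smooth muscle marker, was lowest at 2.75 FPKM (1.94 to 3.37; chr11:117199321-117204782, plus strand). Neighbours in this order kept it in all 16 libraries except FLNA over FLNC (12 of 16), VCL over LASP1 (13 of 16) and MYL9 over TPM1 (11 of 16), so these 3 pairs have no fixed order. FLNC exceeded FLNA only in the R1 libraries of untreated and HU cells, and VCL lay below LASP1 only in R1 libraries. At the lowest level TAGLN rested on 193 fragments (counting error 7.20%) and MYL9 on 380 (5.13%), while FLNC rested on at least 16466.

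**Figure D1:**
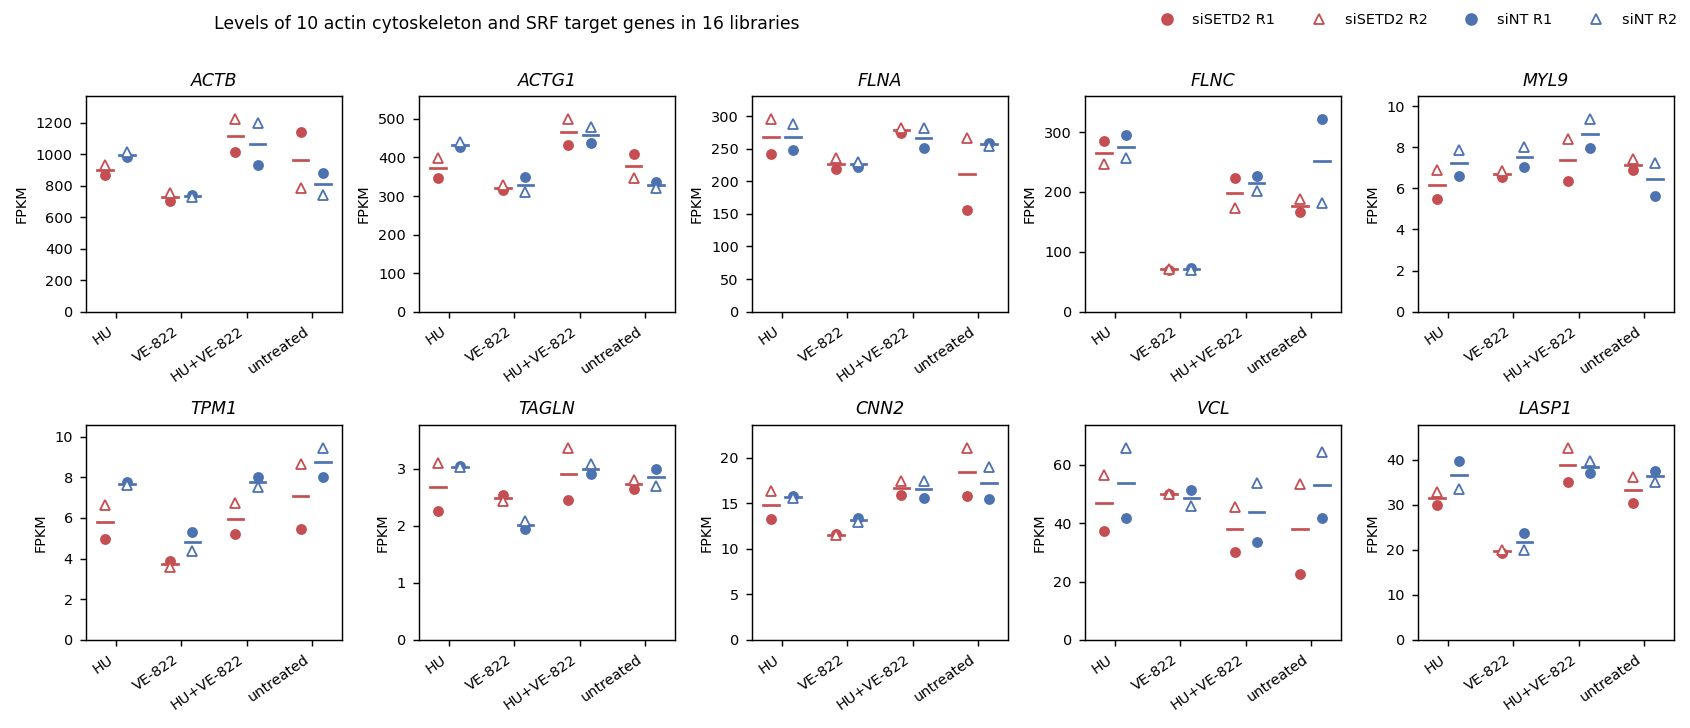
FPKM of the 10 genes in each of the 16 libraries, 1 panel per gene with a linear axis from 0, by treatment and siRNA, with R1 and R2 as separate points and the mean of each group as a line. FLNC and LASP1 are lower in the 4 VE-822-alone libraries than in any other library, and VCL separates R1 from R2 libraries in the other treatments.

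Reads that could belong to other genes were small for most members. Pseudogenes of ACTB and ACTG1 and the POTE genes, 45 in all, held 0.709% as many fragments as these 2 genes. TAGLN is the exception, because PCSK7 on the other strand overlaps it and held 437% as many fragments, and the use of strand in the counting is not given in the sources used here. AP3M1, on the other strand at VCL, held 16% as many fragments as VCL. FLNC-AS1, antisense to FLNC, held 0.221% as many fragments as FLNC, at 2.17 to 2.69 FPKM in VE-822 alone and 4.86 to 13.5 FPKM in the other 12 libraries.

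VE-822 without HU gave the clearest differences. FLNC, LASP1, TPM1 and CNN2 fell against untreated cells, averaged over both siRNAs, and none of the 10 genes rose. That is 4 of 10 called lower by limma on log2(FPKM + 1) with Benjamini-Hochberg adjustment over all genes tested at 0.05, where 13.4% of all genes were called lower and 24.7% called in either direction. With a term for R1 and R2 in the 6 groups without the VE-822-alone libraries (the replicate block), TAGLN was called too, 5 of 10 beside 24.2% of all genes lower and 44.9% in either direction. The median log2 fold change of the 10 genes was -0.24, against -0.03 over all genes tested. In cultured cells as in tissue, fewer cells that express a gene and less of its RNA per cell cannot be told apart in bulk libraries.

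Among the filamins, FLNC held 69.9 and 71.8 FPKM in siSETD2 cells with VE-822 (R1 and R2) and 72.7 and 68.9 FPKM in siNT cells with VE-822, against 166 and 188 FPKM in untreated siSETD2 cells and 321 and 181 FPKM in untreated siNT cells. All 4 VE-822 libraries lay below all 4 untreated libraries, within 4 FPKM of one another, while the untreated siNT R1 library stood high. The log2 fold change was -1.53 (SE 0.166, limma adjusted p = 0.000184; -1.68 within R1 and -1.38 within R2 libraries), and its spread over the 16 libraries exceeded that of 98.5% of genes tested. FLNA held 219 and 235 FPKM in siSETD2 cells and 222 and 229.7 FPKM in siNT cells with VE-822, against 155, 266, 259 and 254 FPKM in the untreated libraries, siSETD2 first. The groups overlapped, with the untreated siSETD2 R1 library alone below the VE-822 libraries, and the log2 fold change was -0.01 (SE 0.152, limma adjusted p = 0.959).

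The ratio of FLNC to FLNA shows the same contrast within each library. It was 0.300 to 0.327 in the 4 VE-822-alone libraries, against 0.705 to 1.24 in the untreated libraries. In HU with VE-822 it was 0.613 to 0.904, against 0.835 to 1.19 in HU, and it was lower with VE-822 in every same-numbered pair. The siSETD2 pairs held 0.813 against 1.18 (R1) and 0.613 against 0.835 (R2). The siNT pairs held 0.904 against 1.19 (R1) and 0.718 against 0.892 (R2). Within each group the ratio was higher in R1 than in R2. The exact permutation test of VE-822 against untreated (two-sided, 4 libraries against 4) gave p = 0.0286, the smallest that 4 against 4 can give, and 0.229 after adjustment over the 8 ratio tests, which were chosen after the data were seen. These tests pooled both siRNAs and did not pair libraries by number. The ratio of ACTB to ACTG1 stayed between 2.12 and 2.79 in all 16 libraries, and its unadjusted exact p was at least 0.171 in each of its 4 drug comparisons.

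**Figure D2:**
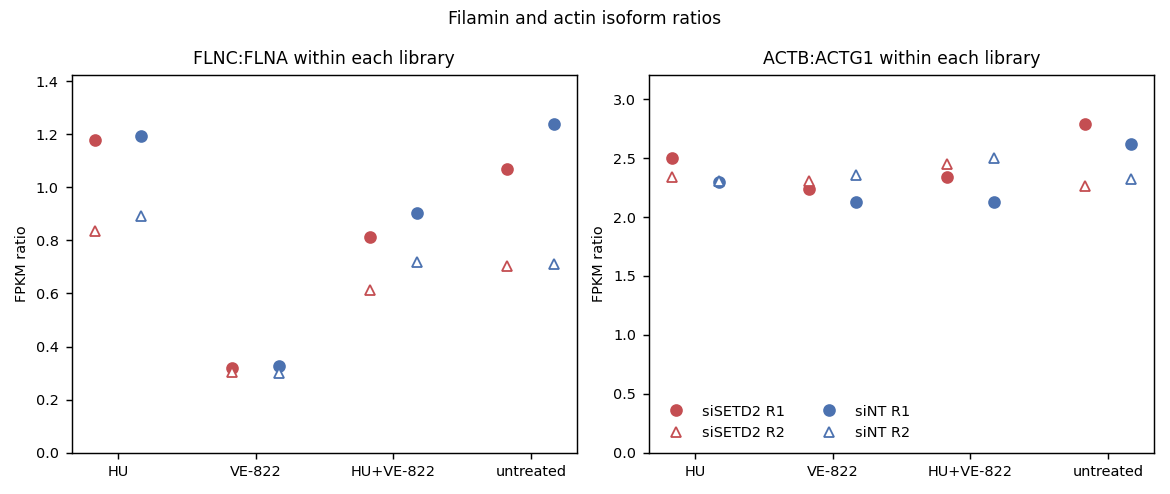
Ratio of FLNC to FLNA and of ACTB to ACTG1 (FPKM over FPKM) in each library by treatment, with siSETD2 and siNT marked. The FLNC to FLNA ratio lies at 0.300 to 0.327 in VE-822 alone and above 0.6 in every other library, while the actin ratio spans 2.12 to 2.79.

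The actins themselves were not called. ACTB held 705 and 754 FPKM in siSETD2 cells and 739 and 730.3 FPKM in siNT cells with VE-822, against 1145 and 786 FPKM in untreated siSETD2 cells and 880.0 and 743 FPKM in untreated siNT cells. The highest VE-822 library overlapped the lowest untreated library, and the log2 fold change was -0.26 (SE 0.142, limma adjusted p = 0.203). Without the untreated siSETD2 R2 library it was -0.39 with a limma adjusted p of 0.0359. Over all single libraries left out it ran from -0.39 to -0.12, with limma adjusted p-values of 0.0359 to 0.532. ACTG1 held 310.1 to 348 FPKM with VE-822 and 320.3 to 410.3 FPKM in untreated cells (log2 fold change -0.11, SE 0.102, limma adjusted p = 0.437).

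The actomyosin regulators split. TPM1 held 3.89 and 3.61 FPKM in siSETD2 cells and 5.32 and 4.36 FPKM in siNT cells with VE-822, against 5.48 and 8.67 FPKM in untreated siSETD2 cells and 8.0 and 9.44 FPKM in untreated siNT cells. The VE-822 libraries were all lower, and the log2 fold change was -0.74 (SE 0.138, limma adjusted p = 0.00397). CNN2 averaged 12.4 ± 0.978 FPKM with VE-822 and 17.9 ± 2.69 FPKM in untreated cells (SD, n = 4 each), again without overlap (log2 fold change -0.49, SE 0.109, limma adjusted p = 0.00937).

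TAGLN held 2.54 and 2.44 FPKM in siSETD2 cells and 1.94 and 2.08 FPKM in siNT cells with VE-822, against 2.65 and 2.81 FPKM in untreated siSETD2 cells and 2.99 and 2.70 FPKM in untreated siNT cells. The groups did not overlap, but the log2 fold change of -0.22 (SE 0.097) had a limma adjusted p of 0.112, and of 0.0448 with the replicate block. MYL9 held 6.55 to 8.03 FPKM with VE-822 and 5.6 to 7.44 FPKM in untreated cells (log2 fold change 0.06, SE 0.117, limma adjusted p = 0.727). Counting TAGLN, 5 of 10 genes had every VE-822 library below every untreated one, which 16.5% of all genes tested had too.

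LASP1 held 19.3 and 20.1 FPKM in siSETD2 cells and 23.7 and 20.1 FPKM in siNT cells with VE-822, against 30.4 and 36.1 FPKM in untreated siSETD2 cells and 37.5 and 35.2 FPKM in untreated siNT cells. All VE-822 libraries lay below 24 and all untreated libraries above 30 FPKM (log2 fold change -0.72, SE 0.104, limma adjusted p = 0.00099). VCL held 49.97 and 50.07 FPKM in siSETD2 cells and 51.4 and 46.1 FPKM in siNT cells with VE-822, against 22.5 and 53.6 FPKM in untreated siSETD2 cells and 41.8 and 64.6 FPKM in untreated siNT cells. The VE-822 libraries fell inside the wide untreated range, and the log2 fold change was 0.21 (SE 0.287, limma adjusted p = 0.621), with 0.70 within R1 and -0.29 within R2 libraries. The 4 genes called lower stayed called under every setting that could give this comparison and with any single library left out. Of the 3 genes with a CArG box in the window, CNN2 was called lower and ACTG1 and FLNA were not, and of the 4 without one, FLNC, TPM1 and LASP1 were called lower and VCL was not. Only exact matches in that window were searched, so boxes elsewhere or with a changed base are missed. A link between the box and the calls was not tested.

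Marker genes differed between the same libraries. The mesenchymal and osteoblastic list (7 genes, 5 tested) summed to 293 to 340 FPKM in VE-822 alone and to 249.6 to 438 FPKM in the other 12 libraries. Within it RUNX2, the osteoblast transcription factor, averaged 6.20 ± 0.491 FPKM with VE-822 and 1.28 ± 0.308 FPKM in untreated cells (SD, n = 4 each; log2 fold change 1.67, limma adjusted p = 3.9e-05). FN1 (fibronectin) was higher too (log2 fold change 1.49, limma adjusted p = 0.0121) and VIM was lower (-0.59, limma adjusted p = 0.0197). The smooth muscle list (6 genes, 2 tested) summed to 1.91 to 2.38 FPKM in VE-822 alone and 1.90 to 4.26 FPKM elsewhere, and CNN1 in it was lower (-0.31, limma adjusted p = 0.0431), as was ACTA2 with the block alone (-0.31, limma adjusted p = 0.0121, and 0.577 without it). The blood list summed to 2.52 to 3.28 FPKM in VE-822 alone and 0.899 to 2.02 FPKM elsewhere, most of it CD3D, with PTPRC at 0.102 FPKM or less. The part of these differences in the fall of the 4 genes was not tested.

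**Figure D3:**
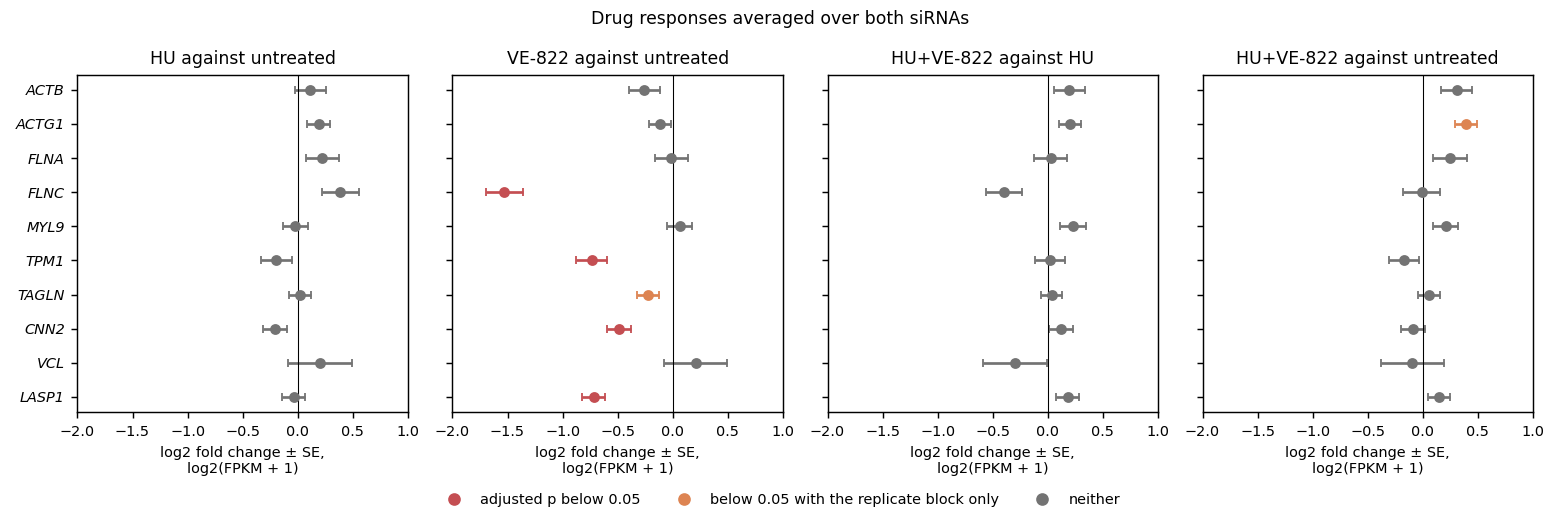
Log2 fold change on log2(FPKM + 1) with its standard error for the 10 genes in the drug comparisons, averaged over both siRNAs. Red points have a limma adjusted p below 0.05 and orange points only with the replicate block (TAGLN and ACTG1). Of these panels only VE-822 against untreated has red points, FLNC at -1.53, TPM1 at -0.74, LASP1 at -0.72 and CNN2 at -0.49.

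HU alone moved none of the 10 genes past the threshold, with the replicate block or without it, where 1.6% and 0.107% of all genes were called. Without the block FLNC alone had an unadjusted limma p below 0.05, and with it CNN2 did too. Voom called 0 of the 10. FLNC held 285 and 246 FPKM in siSETD2 cells and 295 and 257 FPKM in siNT cells in HU, against 166, 188, 321 and 181 FPKM in the untreated libraries (siSETD2 first). The untreated siNT R1 library stood above all HU libraries, and the log2 fold change of 0.39 (SE 0.166) had a limma adjusted p of 0.622 (0.162 with the block). TPM1 was lower in HU in 4 of 4 same-numbered pairs and VCL higher in 4 of 4, with log2 fold changes of -0.19 (SE 0.138) and 0.20 (SE 0.287) and limma adjusted p-values of 0.846 and 0.99. The log2 fold changes of the other members were 0.11 for ACTB, 0.19 for ACTG1, 0.22 for FLNA, -0.02 for MYL9, 0.02 for TAGLN, -0.21 for CNN2 and -0.035 for LASP1, with limma adjusted p-values of at least 0.735.

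When VE-822 was given in HU, none of the 10 genes was called. Without the replicate block FLNC alone had an unadjusted limma p below 0.05 in HU with VE-822 against HU, and with it MYL9 and VCL did too. Voom called 0 of the 10. Of all genes limma called 0.00764%, and 1.31% with the block. FLNC held 223 and 172 FPKM in siSETD2 cells and 227 and 202 FPKM in siNT cells in HU with VE-822, below the 246 to 295 FPKM of the HU libraries and without overlap, as for 2.87% of all genes tested. The log2 fold change was -0.40 (SE 0.166, limma adjusted p = 0.562; 0.145 with the block). LASP1 averaged 38.7 ± 3.35 FPKM in HU with VE-822 and 34.0 ± 4.12 FPKM in HU (SD, n = 4 each; log2 fold change 0.18, SE 0.104, limma adjusted p = 0.72), CNN2 16.6 ± 0.972 and 15.2 ± 1.36 FPKM, and TPM1 6.86 ± 1.23 and 6.75 ± 1.29 FPKM. ACTG1 and MYL9 were higher and VCL lower in HU with VE-822 in 4 of 4 same-numbered pairs (log2 fold changes 0.20, 0.23 and -0.30, limma adjusted p-values of 0.664, 0.669 and 0.85). ACTB, FLNA and TAGLN had 0.195, 0.03 and 0.04, with limma adjusted p-values of at least 0.795.

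The difference between the 2 responses was tested directly in a contrast added after the data were seen, the response to VE-822 in HU minus that without HU. It was positive and called for FLNC (1.13, SE 0.234, limma adjusted p = 0.0150), LASP1 (0.90, SE 0.147, limma adjusted p = 0.00557), TPM1 (0.76, SE 0.195, limma adjusted p = 0.0336) and CNN2 (0.61, SE 0.154, limma adjusted p = 0.0317). That is 4 of 10 genes, where 5.03% of all genes were called in this direction and 9.91% in either (33.1% with the block). TPM1 and CNN2 lost the call with no filter on low values and without any of 12 single libraries each, at limma adjusted p-values of up to 0.0829 for TPM1 and 0.0773 for CNN2. VCL was called with the replicate block alone (-0.50, SE 0.147, limma adjusted p = 0.0229, and 0.433 without it). This contrast holds the VE-822-alone libraries as well, so it carries the same limit as the comparison with untreated cells.

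HU with VE-822 against untreated cells gave 0 calls among the 10 genes by limma and by voom (1 at an unadjusted limma p below 0.05), where 0.0382% of all genes were called, and 1 with the replicate block, where 4.07% of all genes were called higher and 7.3% in either direction. That gene was ACTG1, with 434 and 499 FPKM in siSETD2 cells and 438 and 479 FPKM in siNT cells, against 410.3 and 346 FPKM in untreated siSETD2 cells and 336 and 320.3 FPKM in untreated siNT cells. All 4 treated libraries were higher, as for 4% of all genes, and the log2 fold change was 0.39 (SE 0.102, limma adjusted p = 0.132; 0.0335 with the block). Without the untreated siSETD2 R1 library it was 0.45, with a limma adjusted p of 0.0457. ACTB held 1013, 1222, 931 and 1197 FPKM, against 1145, 786, 880.0 and 743 FPKM (siSETD2 R1 and R2, then siNT R1 and R2), and the groups overlapped through the untreated siSETD2 R1 library (log2 fold change 0.31, SE 0.142, limma adjusted p = 0.378; -0.05 within R1 and 0.66 within R2 libraries). The other log2 fold changes were 0.25 for FLNA, -0.01 for FLNC, 0.21 for MYL9, -0.17 for TPM1, 0.06 for TAGLN, -0.09 for CNN2, -0.095 for VCL and 0.15 for LASP1, with limma adjusted p-values of at least 0.466.

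The other genes of the pathway, in lists written with earlier results of these data known, were called mostly in VE-822 alone as well. Among 34 other cytoskeletal genes known to be controlled by SRF, 33 were tested, of which 13 were called lower and 1 higher in VE-822 against untreated (20 and 5 with the block), with a median of -0.31 on the log2 scale. Over all genes tested 13.4% were called lower and 24.7% in either direction (24.2% and 44.9% with the block), with a median of -0.03. All 3 other tropomyosins were lower, TPM2 (65.1 ± 5.68 and 110.8 ± 17 FPKM, SD, n = 4 each; log2 fold change -0.75), TPM3 (-0.58) and TPM4 (-0.64), with limma adjusted p-values of 0.00103, 0.0135 and 0.0180. ACTN1, an alpha-actinin that bundles filaments, fell by 0.70 and LIMA1, which stabilises them, fell by 0.66 on the log2 scale (limma adjusted p-values of 0.000896 and 0.000609).

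Of 35 genes of filament assembly and turnover, all tested, 13 were called lower and 2 higher in VE-822 against untreated (21 and 3 with the block), with a median of -0.33, beside the same shares and median of all genes. CORO1C, a coronin, averaged 13.2 ± 1.36 FPKM with VE-822 and 26.2 ± 3.8 FPKM in untreated cells (SD, n = 4 each; log2 fold change -0.93, limma adjusted p = 0.000377). VASP, which promotes filament elongation, ARPC2 of the branching Arp2/3 complex, and LIMK2, a kinase of cofilin, had log2 fold changes of -0.83, -0.60 and -0.41. GSN (gelsolin), which severs filaments, rose to 5.59 ± 0.624 FPKM, against 2.78 ± 0.467 FPKM in untreated cells (log2 fold change 0.81, limma adjusted p = 0.000583). The other gene called higher was TMSB4X, which binds actin monomers and has near-identical pseudogenes (log2 fold change 1.18, limma adjusted p = 0.0482), named here after its value was seen.

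SRF itself and its partners were also measured. Of 8 genes 6 were tested, and in VE-822 against untreated SRF was lower (7.72 ± 0.427 and 10.7 ± 0.920 FPKM, SD, n = 4 each; log2 fold change -0.42, limma adjusted p = 0.00565), as was ELK3 (-0.58, limma adjusted p = 0.0369), and ELK4 was higher (0.43, limma adjusted p = 0.00191). The MRTF cofactors MRTFA and MRTFB had log2 fold changes of -0.07 and 0.15 with limma adjusted p-values of 0.542 and 0.339, and were looked at after the list's values were known. With the block ELK1 was called lower too (-0.28, limma adjusted p = 0.00468, and 0.0911 without it). Of 9 growth-factor-type targets tested, JUNB (0.77) and FOS (0.63) were called higher and FOSL1 (-1.09) lower (limma adjusted p-values of 0.00959, 0.0144 and 0.00120), a count near the 24.7% of all genes called. With the block 3 were called higher and 3 lower, and the lower ones then included NR4A1 (-0.35, limma adjusted p = 0.0289) and IER2 (-0.27, limma adjusted p = 0.0361).

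In HU with VE-822 against HU no gene of these 4 lists was called, and with the replicate block ELK1 alone was (log2 fold change 0.46, limma adjusted p = 0.0129 with the block and 0.279 without). The contrast between the 2 VE-822 responses was called for 3 positive and 1 negative of the 33 other SRF-controlled genes, 4 and 1 of the 35 assembly genes, 2 and 0 of the 6 SRF genes, and 1 and 0 of the 9 growth-factor-type targets, where 9.91% of all genes were called. It was positive for SRF (0.70, limma adjusted p = 0.00689), TPM2 (0.99), ACTN1 (0.78), CORO1C (0.90) and VASP (1.13), and negative for GSN (-0.83), the last 5 with limma adjusted p-values of 0.00490 to 0.00975. It was also positive for FOSL1 (1.33), ELK1 (0.74), LIMA1 (0.46), ARPC2 (0.75) and PFN1 (0.76) and negative for MYLK, the kinase of myosin light chains (-0.47), with limma adjusted p-values of 0.00723, 0.0179, 0.0415, 0.0202, 0.0318 and 0.0388. With the block these counts became 12 and 4, 21 and 3, 3 and 1, and 2 and 1, where 33.1% of all genes were called. Of the genes that the naming rule allowed, those called with the block alone were CNN3 (0.41), ELK3 (0.44) and IER2 (0.41), positive. ELK4 (-0.32) and IER3 (-0.54) were negative (limma adjusted p-values with the block, in this order, of 0.00766, 0.0222, 0.0381, 0.0111 and 0.0474). In HU against untreated no gene of these lists was called without the block, and with it the phosphatase gene DUSP1 was (0.71, limma adjusted p = 0.00941). In HU with VE-822 against untreated the block added CAP1, WASL, ELK1, JUNB and EGR1, all higher.

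**Figure D4:**
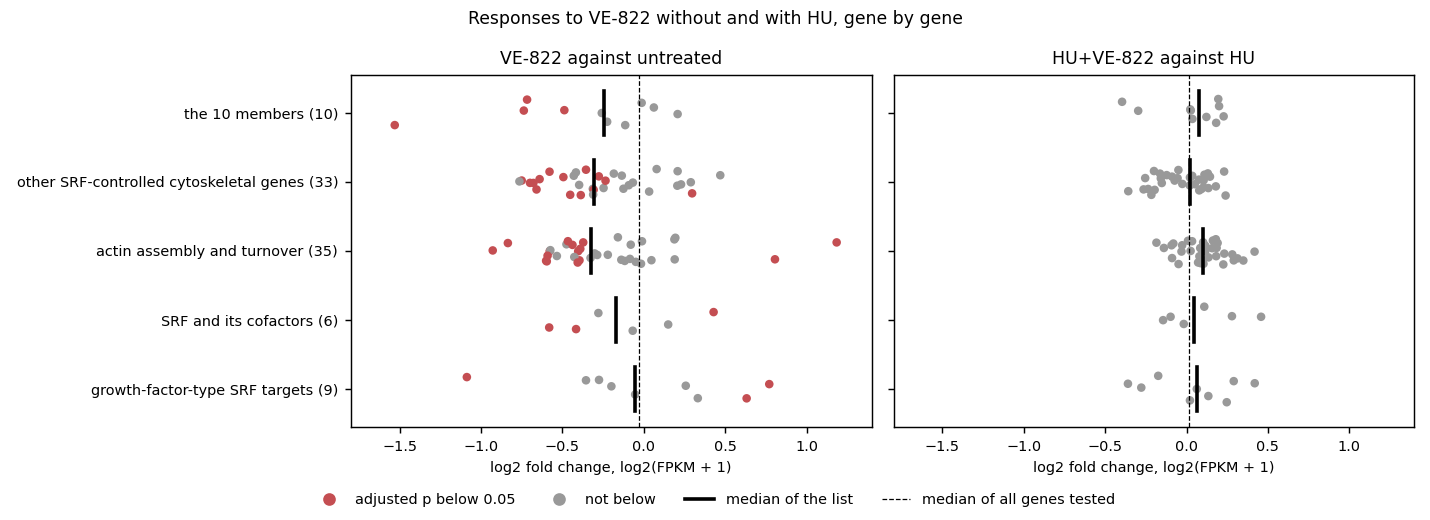
Log2 fold change of each gene on log2(FPKM + 1) for VE-822 against untreated (left) and HU with VE-822 against HU (right), with 1 row for the 10 members and 1 for each list, red where the limma adjusted p is below 0.05. The medians of the members and of the first 2 lists lie at -0.24 to -0.33 on the left, and no point is red on the right.

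The siRNA against SETD2 moved none of the 10 genes past the threshold when averaged over the 4 treatments, where 0.13% of all genes were called. Without the replicate block TPM1 alone had an unadjusted limma p below 0.05, and with it VCL and MYL9 did too. Voom called 0 of the 10. Within each single treatment, and for the difference of the responses to HU, VE-822 or both between siRNAs, no member and 0% of all genes were called by limma. At an unadjusted p below 0.05 limma without the block gave 578, 337, 384 and 285 genes within untreated, HU, VE-822 and HU with VE-822. For the 3 differences it gave 97, 227 and 146 genes. None of these were among the 10 genes, and voom on recovered fragments called 0 genes in each as well.

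With the replicate block 1 of 10 genes was called lower with siSETD2, where 2.22% of all genes were called lower and 3.88% in either direction. This was TPM1, with 4.95 and 6.66 FPKM in siSETD2 cells (R1 and R2) and 7.74 and 7.64 FPKM in siNT cells in HU. In VE-822 it held 3.89 and 3.61 FPKM with siSETD2 against 5.32 and 4.36 FPKM with siNT, and in HU with VE-822 5.20 and 6.71 FPKM against 8.0 and 7.52 FPKM. In untreated cells it held 5.48 and 8.67 FPKM with siSETD2, against 8.0 and 9.44 FPKM with siNT. In 8 of 8 same-numbered pairs, those of VE-822 alone joined by number only, TPM1 was lower with siSETD2. The difference was larger in R1 than in R2 libraries (-0.48 and -0.16 on the log2 scale). Outside VE-822 alone SETD2 itself was lower in R1 than in R2 siSETD2 libraries, and its part in this was not tested.

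The averaged log2 fold change of TPM1 was -0.32 (SE 0.097), with a limma adjusted p of 0.245, and of 0.0409 with the block. The adjusted p ranged over 0.0409 to 0.413 between settings and 0.0458 to 0.538 between left-out libraries, and it passed at 0.0458 without the untreated siSETD2 R2 library (-0.40). The change had the same sign under each scaling tried. Without the VE-822-alone libraries, with the block, it was -0.33 and was not called.

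The other 9 genes lay between -0.23 (VCL, SE 0.203, limma adjusted p = 0.788) and 0.04 (ACTB, SE 0.1, limma adjusted p = 0.946). ACTG1 had -0.008, FLNA -0.065, MYL9 -0.10, TAGLN -0.002, CNN2 -0.04 and LASP1 -0.12, with limma adjusted p-values of at least 0.663. VCL was lower with siSETD2 in 7 of 8 pairs, with 37.3 and 56.6 FPKM with siSETD2 and 41.8 and 65.9 FPKM with siNT in HU as an example. FLNC was lower in 6 of 8 pairs (log2 fold change -0.16, SE 0.117, limma adjusted p = 0.733), and its untreated R1 libraries differed most, at 166 FPKM with siSETD2 and 321 FPKM with siNT. In the companion list of SRF-controlled cytoskeletal genes the block gave TPM4 (-0.29, limma adjusted p = 0.0186), ITGB1 (-0.24, limma adjusted p = 0.0457) and MYH10 (-0.28, limma adjusted p = 0.0491) as lower and CNN3 (0.30, limma adjusted p = 0.00983) as higher with siSETD2, among 33 tested, and no gene without the block. Over all genes tested the block called 2.22% lower and 3.88% in either direction. TPM2 and TPM3, looked at after the values were seen, had 0.07 and -0.09 and were not called. Among the 5 mesenchymal markers tested FN1 (-0.54) and SPARC (-0.38) were lower with the block (limma adjusted p-values of 0.0124 and 0.0140), beside the same shares of all genes. The part of FN1 and SPARC in the difference of TPM1 was not tested.

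**Figure D5:**
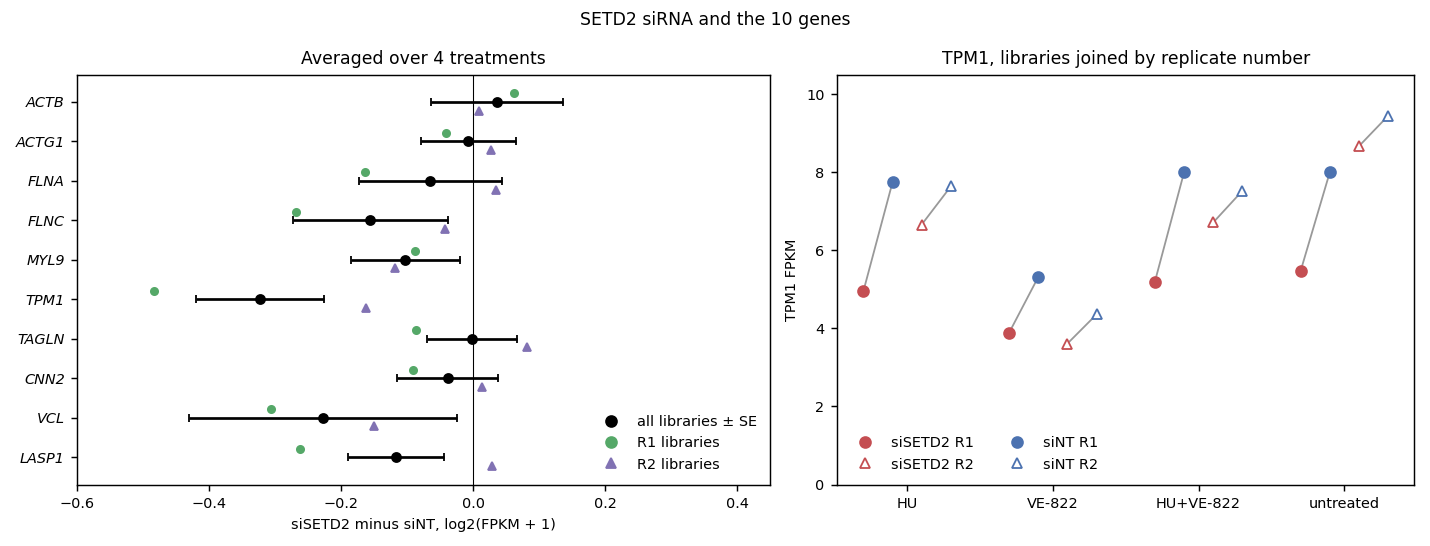
Left, the siSETD2 minus siNT log2 fold change of the 10 genes averaged over 4 treatments with its standard error, and the same within R1 and within R2 libraries; right, TPM1 FPKM in each siSETD2 library joined to the siNT library of the same number. TPM1 lies lowest at -0.32, and all 8 lines run from a lower siSETD2 point to a higher siNT point.

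R1 and R2 libraries differed for some of the 10 genes in the 6 groups apart from VE-822 alone. VCL held 22.5 to 41.8 FPKM in R1 and 45.7 to 65.9 FPKM in R2 libraries, without overlap, and R1 was lower in 6 of 6 groups (log2 difference R1 minus R2 -0.72, SE 0.085, limma adjusted p = 9.7e-05). MYL9 was lower in R1 in 6 of 6 groups (-0.25, SE 0.053, limma adjusted p = 0.00388) and CNN2 in 5 of 6 (-0.20, SE 0.059, limma adjusted p = 0.0197). These are 3 of 10 genes, where 41.2% of all genes tested were called. The VE-822-alone libraries held VCL at 46.1 to 51.4 FPKM in R1 and R2 alike.

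The 10 genes did not move as a unit. The correlation across the 16 libraries on the log2 scale was 0.92 between ACTB and ACTG1, and 0.89 over the 12 libraries without VE-822 alone. Between FLNC and LASP1 it was 0.86 over 16 libraries and -0.07 over 12, and between TPM1 and CNN2 0.86 and 0.63. The libraries share siRNA, treatment and replicate sets, so these values describe them and carry no p. The mean of the 10 genes, each centred on its own average, was -0.37 to -0.27 on the log2 scale in the VE-822-alone libraries and -0.14 to 0.27 in the other 12, where the untreated siSETD2 R1 library was lowest.

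Outside the 10, the 8 genes tested whose levels followed this mean most closely over the 16 libraries were EPB41L3 (r = 0.975), TGM2 (0.971), PACSIN2 (0.956), CMIP (0.955), PRKCE (0.952), ACTN4 (0.951), CTPS1 (0.951) and SPRED1 (0.949). Over the 12 libraries without VE-822 alone the same genes had r = 0.797 to 0.920. ACTN4 is an alpha-actinin that crosslinks filaments, and it held 40.1 to 81.6 FPKM. Of the members, LASP1 followed the mean most closely over 16 libraries (0.943) and VCL least (0.192), but over 12 libraries TAGLN did so most closely (0.811) and FLNC least (0.0536), with VCL at 0.772 and LASP1 at 0.729. Each member is itself part of this mean, so its value cannot be set beside those of the 8 genes outside it.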

How the data were processed

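The authors deposited 1 table of FPKM values for 58735 Ensembl genes in 16 libraries of total RNA. Per the submitters' processing notes, build hg38 was used with STAR 2.6.1d, DESeq2 1.26.0, featureCounts 1.5.0-p3 and FastQC. Their settings, strand included, are not given here in any source used. Symbols, GRCh38 positions and merged exon lengths came from GENCODE 29, in which all 58735 identifiers were found. FPKM times exon length and 1 factor per library gave whole fragments, within 0.01, for 100% of values, with 22310806 to 31101932 fragments per library. The counting error of a member at its lowest level ran from 0.399% (ACTB) to 7.20% (TAGLN).

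Values were tested as log2(FPKM + 1), which understates changes of low genes, with limma 3.58.1 (limma-trend) in R 4.3.3, 1 mean per group, over 13088 genes whose mean was 1 FPKM or more (8 residual degrees of freedom). Adjusted p-values are Benjamini-Hochberg over these genes, with 0.05 as the threshold, in 12 contrasts and 1 added after the data were seen. The code was tested on simulated data.

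Leaving VE-822 alone aside, the R1 minus R2 differences of any 2 groups (15 pairs) had a correlation across genes of 0.363 to 0.746. A VE-822-alone group with another group gave -0.0517 to 0.295 (12 pairs), and both VE-822-alone groups with each other gave 0.395. The numbers therefore pair the libraries in 6 groups, from the data and the shared numbers only, and a fit with a replicate block there (7 residual degrees of freedom) is given beside a result of a member or a named list gene where it changes a call. Pairs, and values within R1 or R2 libraries, that hold VE-822 alone are joined by number only. Counts of same-numbered pairs were not made over all genes.

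The members and lists were chosen with earlier results of these data known. The rule for naming was all 10 members in each comparison (within single treatments and between siRNAs they are given as counts) and, from each list and comparison, up to 5 genes called in either fit, lowest p first; genes outside it are marked as chosen after their values were seen. Other settings were a pseudocount of 0.1, no filter, a mean of at least 5 FPKM, other blocks, other scalings, voom on recovered fragments, and leaving out each library.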

Additional observations from a re-analysis of the deposited data

Results flagged for a closer look

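The response to VE-822 differed between cells with and without HU for 4 of the 10 genes, by a test of the difference itself (limma, response in HU minus response without HU). The difference was 1.13 for FLNC, 0.90 for LASP1, 0.76 for TPM1 and 0.61 for CNN2 on the log2 scale, with limma adjusted p-values of 0.0150, 0.00557, 0.0336 and 0.0317. Over all genes tested 5.03% were called in this direction and 9.91% in either (33.1% with the replicate block). TPM1 and CNN2 lost the call with no filter on low values and without any of 12 single libraries each, at limma adjusted p-values of up to 0.0829 and 0.0773. Each of the 4 genes had its lowest mean level in the VE-822-alone libraries. The contrast was added after the data were seen. It holds the VE-822-alone libraries, so the drug without HU and anything else that set them apart cannot be told apart.

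MYL9 was lower in HU than in untreated siSETD2 cells in 2 of 2 same-numbered pairs (5.46 and 6.89 FPKM in HU, against 6.87 and 7.44 FPKM untreated) and higher in 2 of 2 siNT pairs (6.58 and 7.85 FPKM in HU, against 5.6 and 7.25 FPKM untreated). The responses differed by -0.34 on the log2 scale (siSETD2 minus siNT), and the interaction in limma was not called.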

How the results depend on the processing

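Of 3197 member values under other settings, 3163 kept their direction and their side of the threshold, 8 gained and 26 lost a call, and no call changed sign; 139 values that were not called changed sign. FLNC, LASP1, TPM1 and CNN2 stayed called lower in VE-822 against untreated throughout. The cause of the changes below was not tested. Counts of genes called were 17 for siSETD2 against siNT averaged, 14 for HU, 3237 for VE-822, 1 for HU with VE-822 against HU, 5 for HU with VE-822 against untreated, 1297 for the added contrast and 0 for the rest. With the replicate block in 6 groups these became 508 (1 member, TPM1), 209, 5874, 172, 956 (1 member, ACTG1) and 4329, with 1 and 6 for siSETD2 in untreated cells and in VE-822. With the block over all 8 groups they were 147, 45, 5122, 20, 413 and 3319, and with the block and no VE-822-alone libraries 47, 72, 56 and 413 for the averaged siRNA, HU and both combination contrasts. With no filter they were 52, 46, 25 and 40 for these, 25, 13, 31 and 13 for the siRNA within untreated, HU, VE-822 and the combination, and 31, 30 and 24 for the differences between siRNAs, and 2 members rather than 4 were called in the added contrast. With a mean of at least 5 FPKM counts were 28 (siRNA), 1852 (VE-822), 2, 18 (combination against HU and against untreated) and 833 (added). A pseudocount of 0.1 gave 1 for the siRNA in the combination and 11 for the combination against untreated, scaling to totals gave 2 and 27 for the combination contrasts, and median-of-ratios gave 8 for the combination against untreated. On recovered fragments voom called 1521 genes higher and 1797 lower in VE-822.

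Leaving out 1 library gave 0 to 208 genes and 0 to 1 members for the averaged siRNA, 0 to 160 for it in untreated cells, 0 to 1 in the combination, 0 to 52 for HU, 1772 to 4599 for VE-822, 1 to 3 and 0 to 430 (0 to 1 members) for the combination contrasts, 0 to 3 and 0 to 1 for the differences in HU and in the combination, and 543 to 3049 genes and 2 to 5 members for the added contrast. The untreated siSETD2 R2 library gave 208, 160 and 3049 when left out, and untreated siSETD2 R1 gave 52 and 430. In the added contrast TPM1 kept its call without 4 libraries only (untreated siSETD2 R1 or R2, siSETD2 HU R2, siSETD2 HU with VE-822 R1), and CNN2 without 4 (untreated siSETD2 R1 or R2, untreated siNT R1, siSETD2 HU R2).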
